A study of Homo sapiens with 12 samples.

Results

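Messenger RNAs of heat shock proteins, molecular chaperones and their folding partners were examined among the RNAs that crosslinked to a tagged dSpCas9. Members were all protein-coding genes with symbols of the HSP90, HSP70, HSP110, small HSP, HSP60, HSP10, HSP40 (DNAJ), CCT, BAG, FKBP, cyclophilin (PPI) and protein disulfide isomerase (PDIA) families, HSPG2 left out. This gave 117 of 20046 protein-coding genes in GENCODE version 44. A peak was counted for a member when it overlapped an exon on the same strand, and 267 of the 18128 deposited peaks did. The 267 peaks lay on 40 members (34.2%, 95% Wilson interval 26.2 to 43.2), and a peak in 1 list or more was found on 18.1% of all protein-coding genes. Both shares count annotated genes whether or not these cells express them, and the part of mRNA levels in the difference was not tested. The other 77 members had no peak in any list.

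The peaks came from enhanced crosslinking and immunoprecipitation (eCLIP), in which UV light fixes a protein to the RNA it touches before the protein is pulled down with an antibody. HEK 293T cells (Lenti-X 293T), a human embryonic kidney line, were transiently transfected with V5-dSpCas9, with 3xFLAG-dSpCas9 or with an empty vector, crosslinked 2 times with 400 mJ/cm2, and RNA was taken from the membrane from 115 kDa upward. The dSpCas9 was catalytically dead and cytoplasmic, and no guide RNA was supplied, so the data describe a protein expressed from a plasmid in 1 cell line. For each antibody there were 2 IP libraries, 2 size-matched input libraries and 2 empty vector IP libraries, 12 in all in 6 groups. The size-matched input is RNA from the same membrane region without immunoprecipitation, and the empty vector IP shows what the antibody recovers without the tagged protein. Each deposited list joins both replicates of 1 comparison and gives 1 enrichment for a peak, the log2 of IP reads over control reads. No value carries an error between replicates, the depth is unknown, and no test between lists was run. Every list stops at a log2 of 3 and a −log10 p of 3.01 and holds only peaks found reproducible between replicates, so a member without a peak is not shown to be unbound. Wilson intervals cover counting error only, and peaks of the same mRNA are not independent.

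Chaperones keep unfolded protein chains from clumping and help them reach their fold. HSP70 proteins bind short stretches of a client, J-domain proteins of the HSP40 classes hand clients over and stimulate HSP70, and nucleotide exchange factors such as HSP110 and BAG proteins release them. HSP90 acts later on clients such as kinases and steroid receptors, often with FKBP partners, and the CCT complex (also called TRiC) is a closed ring that folds actin and tubulin. FKBPs and cyclophilins turn proline bonds, and protein disulfide isomerases make and shuffle disulfides in the endoplasmic reticulum. Heat shock factor HSF1 switches many of these genes on when unfolded protein accumulates.

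4 members held an interval found in all 4 lists: DNAJB1, FKBP8, CCT4 and DNAJC5. An interval was the part of the genome shared by peaks of all lists on the same strand, with at least 50% of the first interval overlapped at each step. Members had 7 such intervals of 749 in all, and 10.0% of the 40 members with a peak held one (Wilson interval 3.96 to 23.1), against 11.4% of protein-coding genes with a peak. Intervals that touch were counted separately. The authors' own intersection of these lists gave fewer peaks, so the 749 intervals are not their published set. Sequences are shown because these are stretches that both tags gave against both controls. They are printed from the hg38 reference, 5′ to 3′ on the transcribed strand, with T for U. Capitals mark a predicted GU-loop:5nt-stem, a GU whose U is loosely paired and which is followed directly by 5 paired bases. Coding intervals of DNAJB1, FKBP8 and CCT4 lie at chr19:14516918-14516947 (DNAJB1, minus strand, exon 2 of 3), chr19:18537725-18537761 and chr19:18538221-18538248 (FKBP8, minus strand, exons 6 and 5 of 9) and chr2:61883465-61883483 (CCT4, minus strand, exon 3 of 14).
DNAJB1 exon 2: aGTTCTTCggtggcagaaatccctttgaca
FKBP8 exon 6: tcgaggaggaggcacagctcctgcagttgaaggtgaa
FKBP8 exon 5: tcgccatcaaggctatcacctccagcgc
CCT4 exon 3: agtattacatccagcagcc

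The other 2 intervals of DNAJB1 touch each other in its 3′ UTR, at chr19:14515623-14515670 and chr19:14515671-14515757 on the minus strand, starting 270 and 183 nt after the stop codon. Both predicted sites of the upstream interval are shown, at chr19:14515720-14515749 and chr19:14515690-14515719.
DNAJB1 3′ UTR, first site: tagggcatcagGTGGTGGgaacagcaggaa
DNAJB1 3′ UTR, second site: aaggcattccaGTCTGCCccactgggtctg

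DNAJB1, a stress-induced J-domain partner of cytosolic HSP70, thus gave 3 of the 7 intervals and 33 of the 267 peaks, the most of any member. Its upstream 3′ UTR interval had log2 enrichments of 3.71 for V5 over size-matched input, 4.39 for V5 over empty vector IP, 3.56 for FLAG over size-matched input and 3.36 for FLAG over empty vector IP. The downstream 3′ UTR interval had 4.14, 4.85, 3.56 and 3.36 in the same order, and the exon 2 interval 3.26, 4.31, 3.24 and 3.20. In all 3 the V5 value over the empty vector was the highest. The touching 3′ UTR intervals share 1 peak in each FLAG list, cut at a border of V5 peaks. Their FLAG values are therefore not separate measurements. The V5 lists held 15 and 13 DNAJB1 peaks and the FLAG lists 3 and 2, and together they covered 41.8% of the 2242 nt of the mRNA, the largest share among the members. The V5 peaks formed a nearly unbroken run over the first part of the 3′ UTR, where FLAG peaks lay at either end (V5 4.16, 4.78 and FLAG 4.64 at chr19:14515240-14515323, not in the FLAG list over the empty vector).

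FKBP8 encodes a prolyl isomerase relative anchored in the outer mitochondrial membrane. It carried the highest enrichments of all members in both FLAG lists, 5.35 in the input list and 5.17 in the empty vector list, at the same 5 nt at the end of exon 5. Its exon 5 interval had 3.28, 4.63, 4.67 and 3.87 in the V5 input, V5 empty vector, FLAG input and FLAG empty vector lists, and its exon 6 interval 3.18, 3.75, 4.45 and 4.05. Over size-matched input FLAG was higher in both, while over the empty vector V5 was higher in exon 5 and FLAG in exon 6. Exons 5 and 6 are neighbours in the mRNA, and the intervals lie at mRNA positions 853 to 880 and 898 to 934. The 20 FKBP8 peaks all lay in coding sequence, in exons 4 to 7.

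CCT4, the delta subunit of the CCT ring, had the most even values of the 7 intervals: 3.94, 4.05, 3.75 and 3.94 in the 19 nt that all 4 lists shared. The interval ended 6 nt from an exon junction, and all 11 CCT4 peaks lay within 10 nt of one. Only FLAG gave peaks in exons 11 and 12 (3.23 and 3.20 over size-matched input) and in exon 4 (3.09, with 3.81 over the empty vector), and only V5 in exon 5 (3.24).

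DNAJC5 encodes the cysteine string protein, a J-domain protein of synaptic and other vesicles that is anchored by fatty acids on a run of cysteines. Its exon 4 interval had 4.76, 4.64, 4.33 and 3.54, with a −log10 p between 13.2 and 44.5 in the lists. DNAJC5 also had 5 further loci in its long 3′ UTR with peaks from both antibodies, the highest at chr20:63935390-63935495 (V5 4.61 and 4.09, FLAG 4.78, absent from the FLAG list over the empty vector). A locus is a set of peaks of any list that overlap or touch on the same strand. The locus at chr20:63932524-63932624 had a peak in each list (3.38, 3.47, 3.98 and 3.47), but the FLAG peaks were 38 nt long and it missed the 50% rule.

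Across lists, members took 115 of 6605 V5 peaks over size-matched input (1.74%, 1.45 to 2.09), 63 of 3005 V5 peaks over the empty vector (2.10%, 1.64 to 2.67), 71 of 6554 FLAG peaks over size-matched input (1.08%, 0.860 to 1.36) and 18 of 1964 FLAG peaks over the empty vector (0.916%, 0.581 to 1.44). The number of members with a peak was 34, 22, 24 and 9 (29.1%, 18.8%, 20.5% and 7.69% of 117). All protein-coding genes gave 13.6%, 6.78%, 13.2% and 4.96% in the same order. The interval for members reached from 21.6 to 37.8 in the first list, 12.8 to 26.8 in the second, 14.2 to 28.7 in the third and 4.10 to 13.98 in the fourth, where it included the background. Of the 40 members, 10 were in 1 list, 17 in 2, 7 in 3 and 6 in all 4, namely the 4 above with CCT7 and BAG6.

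The median log2 of member peaks was 3.41, 3.61, 3.55 and 3.44, against 3.61, 3.61, 3.62 and 3.59 for all peaks of the same lists. With 1 value per gene, its highest peak, the member medians were 3.60, 3.82, 3.89 and 3.42, against 3.78, 3.72, 3.77 and 3.68 for all protein-coding genes in the lists, so that members were higher in 2 lists and lower in 2. A log2 of at least 4 was reached by 13.04%, 25.4%, 21.1% and 16.7% of them, against 27.7%, 28.0%, 29.1% and 26.2% of all peaks. The highest member peak of each list was CCT2 (4.88), DNAJB1 (4.85), FKBP8 (5.35) and FKBP8 (5.17), and the highest peak of any gene was 8.56, 7.20, 9.52 and 8.01.

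**Figure D1:**
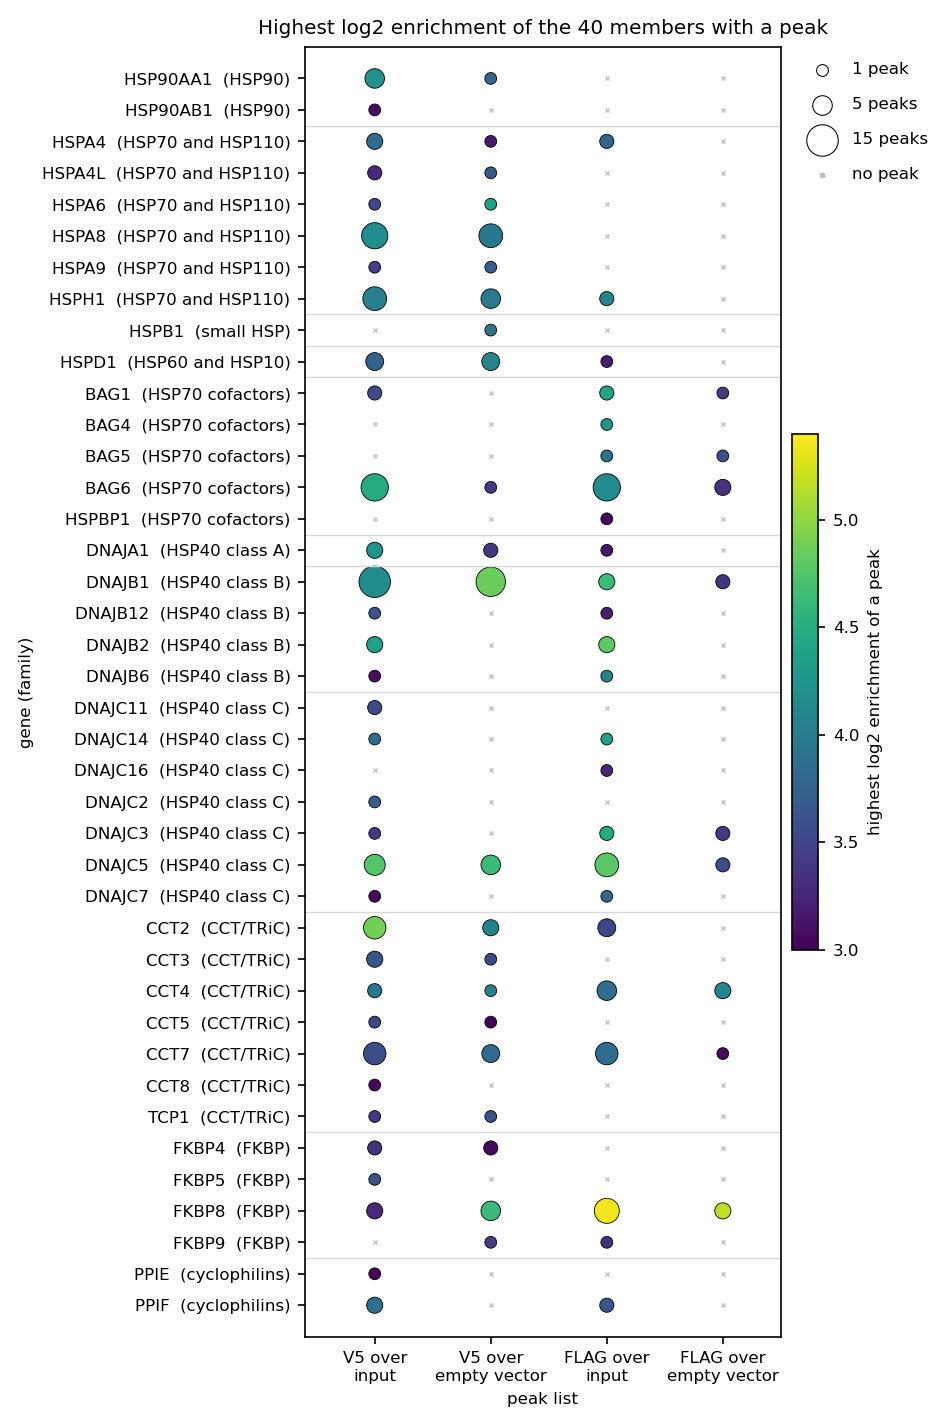
Highest log2 enrichment of a peak (colour) and number of peaks (size of the point) for the 40 members with a peak, 1 row per gene and 1 column per list, with a small cross where a list holds no peak. The HSP70, HSP110 and HSP90 genes lie mostly in the V5 columns, with 42 and 7 peaks, and hold 4 and 0 peaks in the FLAG columns.

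The HSP70 and HSP110 genes had 46 peaks on 6 of 15 members, 42 of them in the V5 lists. HSPA8, the constitutive cytosolic HSP70, had 10 V5 peaks over size-matched input (highest 4.18) and 8 over the empty vector (highest 3.97), and none in either FLAG list. Its peaks covered 29.5% of the mRNA. The highest is shown because it had no counterpart over the empty vector (chr11:123060695-123060758, minus strand, exon 3).
HSPA8 exon 3: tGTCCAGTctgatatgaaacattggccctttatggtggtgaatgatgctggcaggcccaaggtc

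HSPH1, the HSP110 exchange factor for HSP70, had 8 and 5 peaks in the V5 lists (highest 4.04 and 3.98) and 2 over size-matched input in FLAG (highest 4.08, in exon 10). At that exon 10 site the V5 values were 3.17 and 3.98. HSPA4, another HSP110 member, had 5 of its 6 peaks around the start codon, with V5 3.85 and FLAG 3.76 over size-matched input and V5 3.18 over the empty vector. HSPA4L, the third of this group, reached 3.27 against input and 3.69 against the empty vector, both with V5 but at different exons. The locus of the 3.69 peak, chr4:127782494-127782640 at the start of the coding sequence, also held a lower V5 peak over input. HSPA9, the mitochondrial HSP70, had 1 site in exon 11 (3.44 and 3.70, V5). HSPA6, which is strictly stress induced, had 1 peak in each V5 list at different places (3.52 and 4.38). All 6 genes were thus in both V5 lists, and HSPA4 and HSPH1 were also in the FLAG list over size-matched input.

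HSP90 mRNAs had peaks with V5 alone. HSP90AA1, the inducible cytosolic form, had 5 peaks over size-matched input between 3.14 and 4.20, every one in the 3′ UTR, and 1 over the empty vector (3.81) at the site that was highest over input. HSP90AB1, the constitutive form, had 1 peak of 3.08 in the 5′ UTR. HSP90B1, the form of the endoplasmic reticulum, had none.

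HSPD1, the HSP60 of the mitochondrial matrix, had 9 peaks, all in coding sequence. A stretch of exon 2 reached the deposited ceiling of 400 for −log10 p in both lists over size-matched input, with a log2 of 3.75 for V5 and 3.19 for FLAG, and had 4.08 for V5 over the empty vector. No other member peak was at the ceiling, which 273 peaks of the V5 input list and 345 of the FLAG input list reached in all. The V5 peak of this stretch is shown for that reason (chr2:197498757-197498830, minus strand, exon 2, inside coding sequence).
HSPD1 exon 2: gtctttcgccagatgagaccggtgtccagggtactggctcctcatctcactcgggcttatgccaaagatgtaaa

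HSPE1, its co-chaperonin, and the HSPE1-MOB4 readthrough gene had no peak. Of the 8 small HSPs, which hold unfolded clients without ATP, HSPB1 alone had a peak, in the V5 list over the empty vector (3.91).

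Among the HSP40 genes, 1 of 4 in class A, 4 of 12 in class B and 7 of 26 in class C had a peak. DNAJA1, the class A partner of HSPA8, had V5 peaks up to 4.23 against input and 3.39 against the empty vector, and a FLAG peak of 3.15 over size-matched input. DNAJB2, a neuronal form that binds ubiquitin chains, had 3 peaks in each list over size-matched input, with maxima of 4.37 for V5 and 4.80 for FLAG, the second highest gene of the members in that list. DNAJB6, a suppressor of polyglutamine aggregation, had 3.08 and 4.08 at the same 3′ UTR site, and DNAJB12, of the endoplasmic reticulum membrane, 3.60 and 3.17 in its first exon. None of these 3 was in a list over the empty vector. In class C, DNAJC14 (3.83 for V5, 4.36 for FLAG) and DNAJC7 (3.03 and 3.80), which binds both HSP70 and HSP90, had a 3′ UTR site in both lists over size-matched input. DNAJC3, an inhibitor of stress kinases and a luminal HSP70 partner, had 2 sites in the 3′ UTR with FLAG over both controls (4.47 and 3.41 at the higher one) and a V5 peak of 3.38 elsewhere. DNAJC2, a ribosome-bound J protein (3.67), and DNAJC11 of mitochondria (3.54) had V5 peaks only, and DNAJC16 a FLAG peak only (3.25).

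BAG6, which guards hydrophobic proteins on their way to membranes or to degradation, had 26 peaks, second to DNAJB1. Each list over size-matched input held 11, with maxima of 4.46 for V5 and 4.15 for FLAG, and the lists over the empty vector held 1 (V5, 3.38) and 3 (FLAG, up to 3.34). They were at most 61 nt long and lay in exons 1 to 7 and 21 to 26, with no peak in between. The BAG family and HSPBP1 were the only group in which FLAG lists held more peaks (21) than V5 lists (14). BAG5 (3.92 and 3.58), BAG4 (4.28) and HSPBP1 (3.04) were in FLAG lists only. BAG1, which ties HSP70 to the proteasome, had a 3′ UTR site with 3.46 for V5, 4.41 for FLAG and 3.42 for FLAG over the empty vector. BAG2 and BAG3 had no peak.

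With the HSP40 classes counted apart, the CCT genes had the most peaks of any family, 53 on 7 of 10 members. Of these peaks 50 lay in coding sequence. CCT7 had 19, with maxima of 3.56, 3.83, 3.85 and 3.05 in the 4 lists, and its peaks covered 38.8% of the mRNA. At exon 6 it had V5 over the empty vector (3.83) and FLAG peaks over size-matched input (3.61 and 3.07) and the empty vector (3.05), but no V5 peak over size-matched input, so no interval in all 4 lists. CCT2 had 14 peaks and the highest V5 value of all members, 4.88 over 28 nt at the end of exon 13. The FLAG peak there had 3.51, and neither empty vector list had a peak on those 28 nt. CCT3 (3.64 and 3.53), TCP1 (3.39 and 3.63), CCT5 (3.51 in exon 8 and 3.01 in exon 10) and CCT8 (3.06 over size-matched input) had V5 peaks only. CCT6A and CCT6B, the zeta subunits, and CCT8L2 had none.

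**Figure D2:**
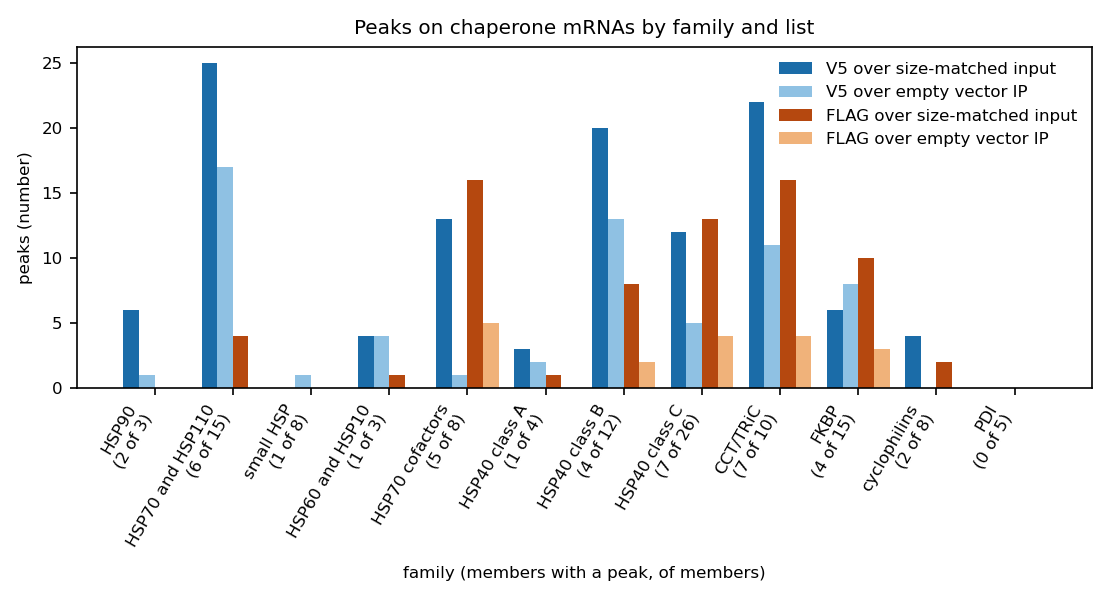
Number of peaks in each of the 4 lists for the 12 families, with the members that had a peak and all members in brackets. V5 lists led for HSP70 and HSP110 (42 against 4), HSP90 (7 against 0), HSP40 class B (33 against 10) and CCT (33 against 20). FLAG lists led for the HSP70 cofactors (21 against 14), and HSP40 class C was level (17 each). Over all genes the V5 lists held 6605 and 3005 peaks and the FLAG lists 6554 and 1964. In class B the lead was that of DNAJB1 (15 and 13 V5 peaks, 3 and 2 FLAG peaks). DNAJB2, DNAJB6 and DNAJB12 each had as many FLAG as V5 peaks. Of the 35 cofactor peaks 26 were those of BAG6 (11 and 1 V5 peaks, 11 and 3 FLAG peaks). In CCT, CCT4 alone had more FLAG peaks (5 and 3) than V5 peaks (2 and 1).

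Of 15 FKBP genes, 4 had a peak. Besides FKBP8, FKBP4, an HSP90 partner in steroid receptor complexes, had a split 3′ UTR site with V5 (up to 3.35 against input and 3.06 against the empty vector). FKBP5, its glucocorticoid-induced relative, had 3.60 with V5 over size-matched input, and FKBP9 had 3.43 (V5 over the empty vector) and 3.33 (FLAG over size-matched input) at different places. Among 8 cyclophilins, PPIF of the mitochondrial permeability pore reached 3.90 for V5 and 3.64 for FLAG, PPIE of the spliceosome 3.02 for V5, and PPIA, the abundant cytosolic form, had no peak. P4HB, a protein disulfide isomerase outside the symbol rule, had peaks over size-matched input (V5 3.39, FLAG 3.00). The 5 members with PDIA symbols, PDIA3 among them, had no peak. Nor had HSPA1A and HSPA1B, the inducible HSP70 genes whose copies are nearly identical, or HSPA5, the HSP70 of the endoplasmic reticulum.

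Members with peaks under V5 alone numbered 16 of 40, against 25.9% of all genes with a peak, and 4 had peaks under FLAG alone (10.0%, against 20.9%). Among the 19 members in both lists over size-matched input FLAG was higher in 11 and V5 in 8, and V5 minus FLAG had a median of −0.04, from −2.07 to 1.37. For all 1857 genes in both lists FLAG was higher in 47.6%. At the level of peaks, 42.6% of the 115 member peaks in the V5 input list met a FLAG peak of the FLAG input list (34.0 to 51.7), against 54.0% of all peaks of that V5 list. In the other direction the share was 63.4% of 71 (51.8 to 73.6), against 55.8%. Whether the V5 and FLAG libraries differ in depth could not be seen from the lists, and its part in these shares was not tested.

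The second control was the empty vector. Of the 115 member peaks in the V5 input list, 47.0% were met by a peak of the V5 empty vector list (38.1 to 56.0), and the share was 36.0% for that whole input list. For the 71 FLAG peaks it was 23.9% (15.5 to 35.0), against 27.9%. The FLAG empty vector list is the shorter of the 2, with 1964 peaks against 3005.

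By region, 170 of the 267 member peaks lay mainly in coding sequence (63.7%, 57.7 to 69.2), 78 in the 3′ UTR (29.2%, 24.1 to 34.9) and 19 in the 5′ UTR (7.12%, 4.60 to 10.8). For all peaks on exons of protein-coding genes the shares were 53.0%, 37.9% and 8.14%. Coding sequence made up 48.6% of the length of the 40 mRNAs, the 3′ UTR 48.0% and the 5′ UTR 3.41%. Families differed in where their peaks lay. Coding sequence held 50 of 53 CCT peaks, 37 of 46 HSP70 and HSP110 peaks, 9 of 9 HSPD1 peaks, 26 of 35 cofactor peaks and 21 of 27 FKBP peaks. The 3′ UTR held 27 of 34 class C and 25 of 43 class B HSP40 peaks, 6 of 7 HSP90 peaks and 6 of 6 cyclophilin peaks. The mRNAs also differ in make-up, and coding sequence was 73.3% of the length of the CCT mRNAs and 23.4% of that of the cyclophilin mRNAs. It was 75.6% of the HSP90 mRNAs, where 0 of 7 peaks lay in it, and 45.6% of the HSP70 and HSP110 mRNAs, where 80.4% of the peaks did. Of the 7 HSP90 peaks, 6 were on HSP90AA1. These length shares are pooled over mRNAs that differ in number of peaks. HSPA4L, with 2520 of 10608 nt coding, had 3 of the 46 peaks, and HSPA8, with 1941 of 2264 nt coding, had 18. In class B the 25 peaks came mostly from DNAJB1, and in class C from DNAJC5. In 29 peaks more than 1 region was touched.

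**Figure D3:**
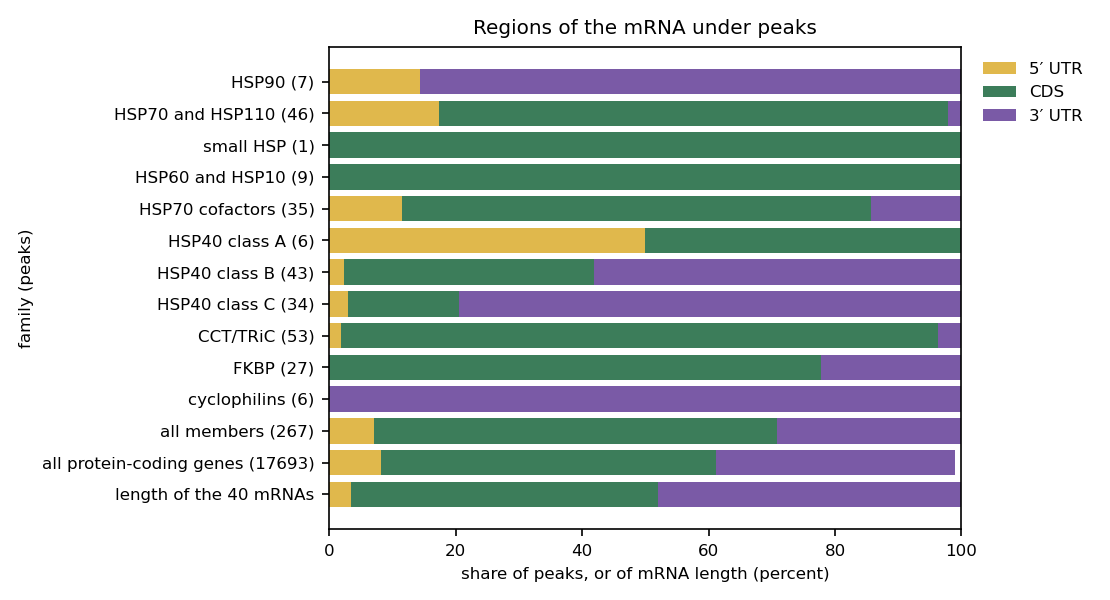
Share of peaks in the 5′ UTR, coding sequence and 3′ UTR by family, for all members and for all protein-coding genes, with the length shares of the 40 mRNAs in the last bar. The number of peaks is in brackets, and the bar for all genes ends at 99% because 0.972% of its peaks lay on other exons. CCT and HSPD1 bars are mostly coding sequence, and HSP90 and cyclophilin bars mostly 3′ UTR.

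Exon junctions were close to many of the coding peaks. A peak crossed a junction of the canonical transcript or came within 10 nt of it in 120 of 267 cases (44.9%, 39.1 to 50.9), against 32.1% of all peaks on protein-coding exons. Coding peaks alone gave 111 of 170 (65.3%, 57.9 to 72.0) against 55.8%. In BAG6 a FLAG peak of 3.43 covered 4 nt at the edge of exon 23. Peaks are listed by genome position, so a bound stretch across a junction would be listed as separate peaks in neighbouring exons, and counts of peaks are not counts of sites.

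**Figure D4:**
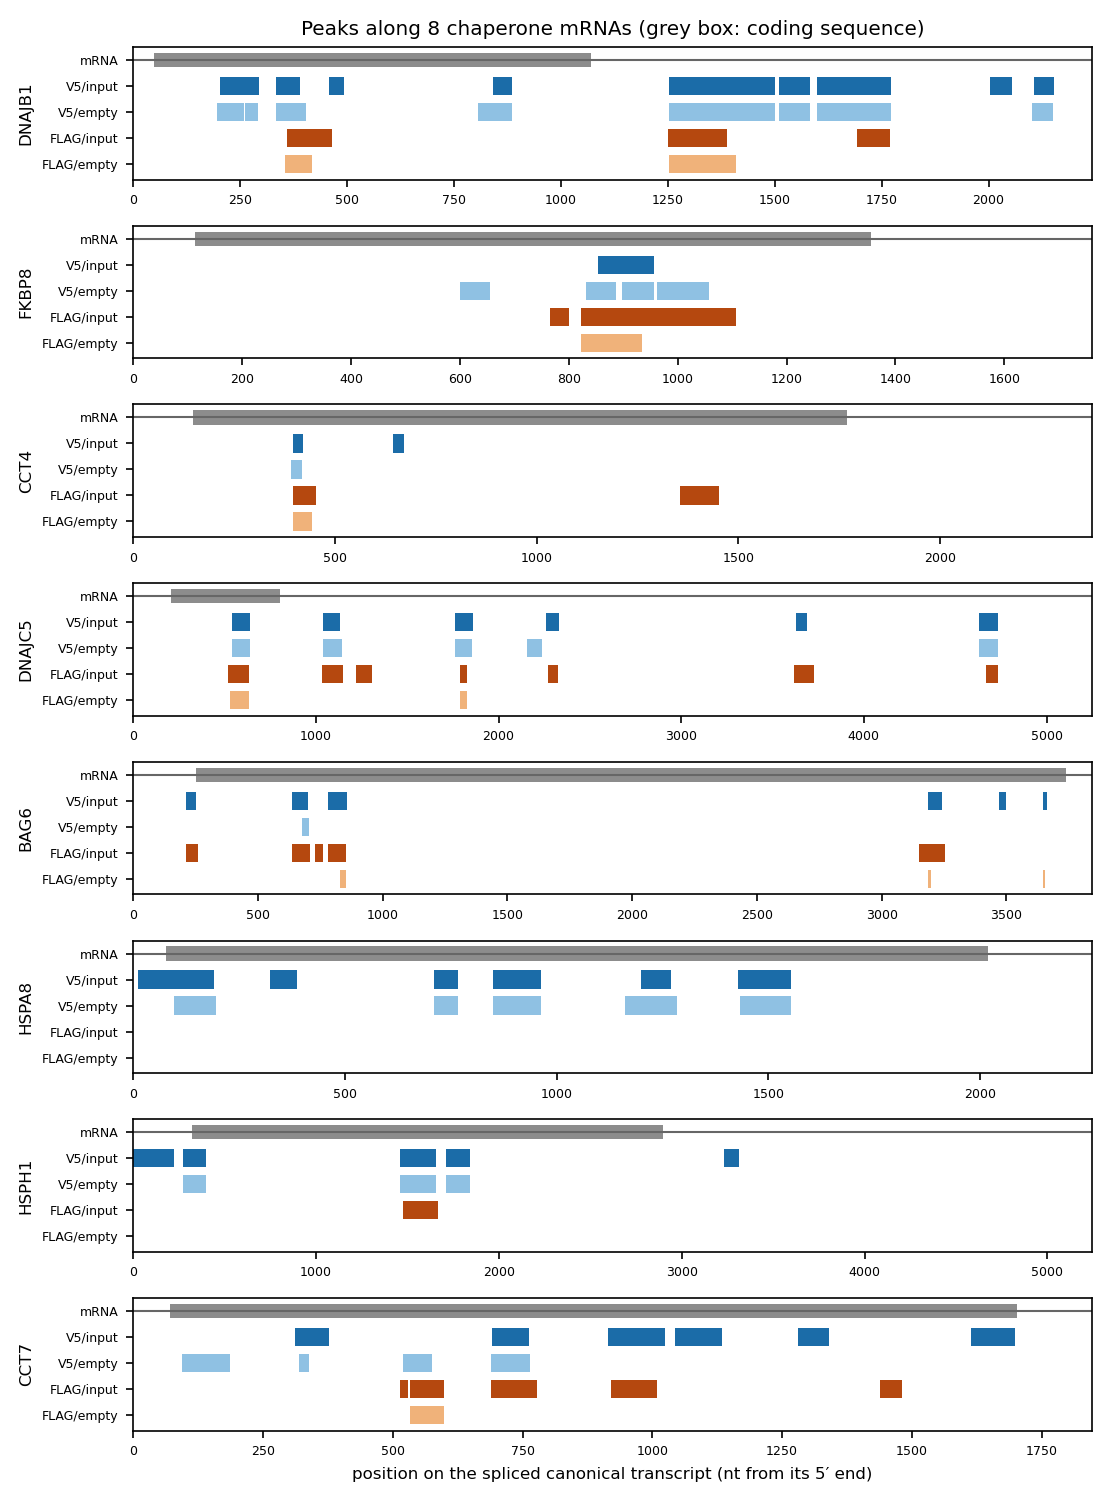
Peaks of the 4 lists along the spliced canonical transcripts of 8 members, in nt from the 5′ end, with the coding sequence as a grey box in the top row of each panel. Bars are drawn at least 1/400 of the mRNA wide. DNAJB1 and DNAJC5 peaks run into the 3′ UTR, FKBP8 peaks gather in the middle of the coding sequence, and HSPA8 has bars in the V5 rows only.

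Sequence was compared with the GU-loop:5nt-stem model at the level of loci. Peaks of the members joined into 124 loci, of which 58 came from 1 list, 43 from 2, 16 from 3 and 7 from 4. The model found at least 1 site in 47 (37.9%, 29.8 to 46.7), against 47.2% of all 8624 loci. Of the 7 intervals in all 4 lists, 3 held a site (42.9%, 15.8 to 75.0), against 36.6% of all 749. Long loci have more room for a match. Below 50 nt, 6 of 30 member loci held a site (9.51 to 37.3), and 17.5% of all loci did, from 50 to 99 nt the shares were 38.6% of 44 and 43.2%, and from 100 nt 48.0% of 50 (34.8 to 61.5) and 65.2%. By family, 10 of 21 HSP70 and HSP110 loci, 11 of 28 CCT loci, 8 of 17 class C loci and 5 of 15 class B loci held a site, but 3 of 17 cofactor loci and 2 of 9 FKBP loci. Neither FKBP8 interval above holds one. The DNAJB1 exon 2 site was called in the interval with its own 50 nt of flank and not in the longer locus around it. Member loci had a median GC content of 55.6%, against 59.6% for all loci, with 38.8% for HSP90 and 60.9% for HSP40 class B. The GU dinucleotide itself was missing from 4 of the 124.

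**Figure D5:**
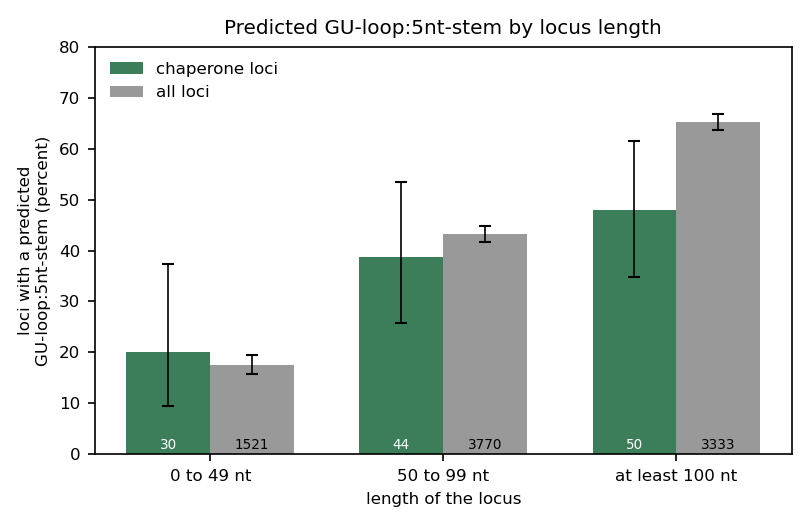
Percent of loci with a predicted GU-loop:5nt-stem by length of the locus, for chaperone loci (green) and all loci (grey), with 95% Wilson intervals and the number of loci at the foot of each bar. Both rise with length, and at 100 nt or more the chaperone bar stands at 48.0% and the other at 65.2%.

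Some peaks of related genes lay at matching places of their coding sequence. This was noticed after the values were seen and is a description with no test. Coding sequences of the 7 CCT and the 6 HSP70 and HSP110 members with a peak were aligned in pairs by codon, and a pair of loci was counted when at least 10 aligned codons lay under both. In CCT 16 of 27 coding loci were in such a pair, and in HSP70 and HSP110 13 of 18. Some overlap must follow from the extent of the peaks alone, since loci covered 45.3% of the codons of CCT7, 31.6% of HSPA8 and between 3.33% and 21.7% in the other 11 genes. The share of loci that would pair from extent alone, or between unrelated genes, was not computed. The counts therefore do not show more matching than that. One place in CCT was a stretch shared by CCT2, CCT4 and TCP1, whose loci are shown for comparison (chr12:69597677-69597766, plus strand, chr2:61872458-61872509, minus strand, and chr6:159779909-159780074, minus strand). CCT2 and TCP1 shared 31 codons there with 50.5% of nucleotides identical, and CCT4 and TCP1 18 codons with 59.3%. Over their whole alignments the identity was 46.5% and 48.5%. Other pairs of loci were below the whole alignment, such as CCT2 and CCT3 over 21 codons (33.3% against 43.7%).
CCT2 exon 12: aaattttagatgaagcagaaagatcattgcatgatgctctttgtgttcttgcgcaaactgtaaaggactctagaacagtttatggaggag
CCT4 exon 11: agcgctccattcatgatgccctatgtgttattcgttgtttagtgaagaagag
TCP1 exon 10: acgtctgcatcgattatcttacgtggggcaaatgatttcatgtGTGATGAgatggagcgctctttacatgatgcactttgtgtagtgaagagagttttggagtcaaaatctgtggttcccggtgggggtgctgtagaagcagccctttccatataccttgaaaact

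In TCP1 this stretch was a V5 peak against both controls (3.39 and 3.63). In CCT2 the V5 peaks against input (3.64, 11 nt) and against the empty vector (3.57, 79 nt) touch without overlap, and in CCT4 with FLAG over size-matched input (3.23). The upstream end of the CCT3 locus in exon 12 aligns with the CCT2 stretch over 27 codons and was a V5 peak of 3.23 against input. A V5 peak against the empty vector (3.53) overlapped only the downstream end of that CCT3 peak. In the HSP70 group, HSPA8 exon 6, HSPA9 exon 11, HSPA4L exon 10 and HSPH1 exon 9 had loci that overlapped in the alignment. HSPA8 and HSPA9 shared 25 codons with 69.3% of nucleotides identical, and HSPA4L and HSPH1 26 codons with 69.2%. Pairs across the 2 subgroups shared 23 to 28 codons with 33.3% to 47.2%. Over the whole alignments the identity was 57.7%, 64.3% and 43.6% to 46.0% in the same order. The 4 loci are shown (chr11:123059178-123059261, minus strand, chr5:138559917-138560092, minus strand, chr4:127805687-127805763, plus strand, and chr13:31148374-31148480, minus strand).
HSPA8 exon 6: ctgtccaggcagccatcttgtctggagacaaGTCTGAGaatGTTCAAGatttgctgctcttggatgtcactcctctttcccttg
HSPA9 exon 11: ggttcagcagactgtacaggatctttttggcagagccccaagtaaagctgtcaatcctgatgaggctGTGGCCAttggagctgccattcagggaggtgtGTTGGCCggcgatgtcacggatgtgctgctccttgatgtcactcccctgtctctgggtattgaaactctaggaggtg
HSPA4L exon 10: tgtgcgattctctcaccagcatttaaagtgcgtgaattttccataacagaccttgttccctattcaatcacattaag
HSPH1 exon 9: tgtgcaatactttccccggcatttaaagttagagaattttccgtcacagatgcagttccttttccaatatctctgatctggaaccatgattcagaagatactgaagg

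The longest run of identical bases between any 2 paired loci was 15 nt (HSPA4L and HSPH1, at the start of the coding sequence), and in CCT 9 nt. Near-identical copies elsewhere are a separate matter. Of the 118 loci of at least 25 nt, 16 in 8 members (HSPA6, HSPA8, HSPD1, TCP1, DNAJA1, DNAJB1, FKBP8 and FKBP9) matched a transcript of another gene at 95% identity or more over at least 90% of their length, mostly pseudogenes such as those of HSPD1 and HSPA8. Reads of such loci could be split or lost between copies. Only loci with a peak were searched, so copies of members or stretches without a peak were not looked for. None of the 232 annotated pseudogenes of these families held a peak.

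Other genes of protein folding were listed for comparison. Of 37 genes for prefoldin subunits, HSP90 and HSP70 co-chaperones, luminal, mitochondrial and tubulin folding factors and heat shock factors, 17 had a peak (45.9%). The share was 34.2% for members and 18.1% for all protein-coding genes. By list, 12, 7, 12 and 2 of the 37 had a peak. All protein-coding genes gave 13.6%, 6.78%, 13.2% and 4.96% in the same order. GRPEL2, a nucleotide exchange factor of mitochondrial HSP70, was the only 1 of the 17 with an interval in all 4 lists. Such an interval was held by 11.4% of all protein-coding genes with a peak. The maxima of GRPEL2 were 5.04, 3.99, 5.19 and 3.41. SGTA, which works with BAG6, reached 4.43, 4.13 and 4.19 in 3 lists. HSF1, the master regulator of the heat shock response, had 3.25 for V5 and 4.03 for FLAG over size-matched input. The HSP70 and HSP90 adaptor STIP1 had V5 peaks only (3.44 and 3.24). Of the 6 prefoldin genes, VBP1 had peaks (FLAG, 3.26 and 3.04) and the other 5 none.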

How the data were processed

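eCLIP libraries of V5-dSpCas9, 3xFLAG-dSpCas9 and empty vector HEK 293T cells were grouped by their GEO labels. The submitters' notes name cutadapt 1.14, UMI-tools 1.0.0, STAR 2.4.0i and SAMtools 1.6. The authors aligned reads to hg38, called peaks, and joined replicates by the Irreproducible Discovery Rate. The deposited values are the log2 enrichment of each peak, averaged over replicates by the authors, and the −log10 of its p-value, with no counts. No replicate value, depth or test of conditions could therefore be had.

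Peaks were assigned to GENCODE 44 exons and to regions of the canonical transcript by the largest overlap. The 4 lists were intersected at 50% overlap. Sites were predicted with ViennaRNA 2.7.2 (window 70, flanks of 50 nt of genomic sequence, which is intron beyond an exon end; U paired below 0.7, stem above 0.5). Copies were sought with BLAST 2.17.0. Python 3.11.15, pandas 2.3.3 and scipy 1.17.1 were used, and the steps were tested on simulated data. Members and lists were chosen with earlier results of these data known. Named genes were those with an interval in all lists, the 3 highest per list, the 3 with most peaks, and a reference set of major chaperones with or without a peak. Other genes were named to complete a family after their values were seen. Alternatives changed thresholds, overlap rules, regions and members. Expression levels were not analysed here. 1 sequence is not reported here.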

Additional observations from a re-analysis of the deposited data

How the results depend on the processing

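Of 76 values recomputed under 12 other settings, 50 stayed near the reported ones (counts within 1.5-fold, shares inside their Wilson interval, medians within 0.25 log2) and 26 moved. A log2 of at least 4 left 15, 16, 15 and 3 member peaks in the lists (V5 over input, V5 over empty vector, FLAG over input, FLAG over empty vector), 18 members, 0 intervals and 0 members with an interval. It gave 57.1% of peaks in coding sequence, 38.8% in the 3′ UTR and 4.08% in the 5′ UTR, medians of the highest log2 per member of 4.23 (V5 over input) and 4.41 (FLAG over input) against 3.597 and 3.892, a FLAG overlap with the empty vector list of 13.3%, and predicted sites in 25.8% of loci. A −log10 p of at least 10 left 63, 14, 46 and 7 peaks, 25 members, 3 intervals and 2 members with an interval, and overlaps of 28.6% (V5) and 15.2% (FLAG), for which the share over all peaks at that threshold was not computed. At 90% overlap 2 intervals in 2 members remained. With the U threshold at 0.5, 22.6% of loci held a site. Region, overlap and site shares over all peaks or loci were not computed at a log2 of 4 or at this U threshold. Nor was the share of all genes with a peak at the stricter log2 or p threshold. The stricter log2 and p thresholds keep fewer peaks by construction, and for the other settings the cause was not tested. No paired analysis was possible because the lists hold 1 value per peak, and for the same reason no replicate could be left out.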

Other observations

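Members that work inside the endoplasmic reticulum were counted apart. Of 18 chaperones and folding enzymes of its lumen, a list drawn up after the values were seen, 2 had a peak (11.1%, Wilson interval 3.10 to 32.8), DNAJC3 and FKBP9, with 7 peaks between them. That interval includes the 18.1% of all protein-coding genes with a peak. Of the other 99 members 38 had one (38.4%, 29.4 to 48.2). HSPA5, HSPA13, HSP90B1, DNAJB9, DNAJB11, DNAJC10, PPIB and all 5 PDIA genes were among the 16 without one. mRNA levels were not analysed here, and their part in this was not tested. In the list of other folding genes, CANX (FLAG, 3.22), P4HB (V5 3.39, FLAG 3.00), SDF2L1 (FLAG, 3.10) and SERPINH1 (V5, 4.30 and 3.47), which also act in the endoplasmic reticulum, had peaks, and CALR, HYOU1 and SIL1 had none.

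Outside exons, members held 1 intronic peak (V5 over size-matched input) and 1 peak on the opposite strand (FLAG over size-matched input).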
